A study of Mus musculus with 5 samples.

Results

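The genes described here encode the machinery of the excitatory synapse: ionotropic and metabotropic glutamate receptors, the neurexins with their neuroligin and LRRTM partners, and the scaffold proteins of the postsynaptic density. They were chosen by symbol alone, as the Gria, Grik, Grid, Grin, Grm, Nrxn, Nlgn, Lrrtm, Dlg, Dlgap, Shank and Homer families, and 50 of the 29495 genes in the count tables matched. Of these 50 genes, 39 passed the filter on low counts and were tested, and 11 did not. The RNA came from mouse glioma cells of genotype p53-/-;NF1-/-;tdTomato+/-, from a tumor mouse model whose background mixes CD-1 with C57BL/6. They were kept in co-culture with olfactory bulb neurons of C57BL/6 pups aged P2 to P3, then separated by flow sorting on tdTomato. IGF-1 (insulin-like growth factor 1) was given overnight at 20 ng/mL in 3 libraries (replicates 3, 4 and 5), and 2 co-culture libraries without it served as controls (replicates 1 and 2). All 5 titles share one code, and no label tells whether a library is a culture, an animal or a tumor of its own, so every p-value reflects the spread among these 5 libraries, which may be technical. In both groups the neurons had been plated and kept in media with insulin, serum or B27.

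AMPA and kainate receptors are glutamate-gated channels built of 4 subunits, NMDA receptors need the obligatory subunit GluN1, and metabotropic receptors act through G proteins. Neurexins on the presynaptic side bind neuroligins and LRRTMs across the cleft, and DLG, DLGAP, SHANK and HOMER proteins tie the receptors to the cytoskeleton. Oligodendrocyte progenitors, and glioma cells that resemble them, are known to carry AMPA receptors and to receive synapses from neurons.

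Libraries held 18359421 to 20144181 counts with IGF-1 and 16944315 to 17365697 in the controls. IGF-1 replicate 5 stood apart. CPM values are counts per 1000000 counts of a library, scaled with TMM factors. Log2 differences between replicates 5 and 3 had an SD of 0.22 over 9779 genes of at least 10 CPM, beside 0.11 between IGF-1 replicates 3 and 4 and 0.12 between the controls. Fits with each library left out had been planned, and the one without replicate 5 is given beside that with all libraries. The 7 markers of oligodendrocyte progenitors summed to 3901, 3878 and 4371 CPM in IGF-1 replicates 3, 4 and 5 and to 3702 to 3843 CPM in the controls. In that order, Cspg4 was at 553, 572 and 760 CPM, Pdgfra at 518, 510 and 629, and Sox10 at 836, 828 and 946. Olig2 (260, 282 and 296 CPM) and Gpr17 (121, 121 and 134) rose less in replicate 5. Olig1 (719, 711 and 710 CPM) and Ptprz1 (893, 855 and 896) hardly differed. Of 16 neuronal markers, 10 averaged under 1 CPM, among them Rbfox3 with 0 to 1 counts per library, Slc17a6 with 0 to 3 and Stmn2 with 1 to 6. The neuronal list summed to 109 to 120 CPM with IGF-1 and 98.7 to 99.7 CPM in the controls, most of it from Tubb3, Nefm and Nefl. In bulk RNA, fewer cells of a type and less RNA per cell cannot be told apart.

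The 50 genes together took 0.236%, 0.239% and 0.264% of all counts in IGF-1 replicates 3, 4 and 5, and 0.247% and 0.239% in the controls. Averages of at least 100 CPM were reached by 5 genes, Grik3, Nlgn2, Dlgap1, Gria4 and Gria3. A further 25 lay between 5 and 100 CPM, 8 between 1 and 5 CPM, and 12 under 1 CPM. Per kilobase of transcript, Grik3 was highest at 79.0 CPM per kb, with a range of 75.1 to 82.3 over the libraries. Nlgn2 followed at 43.1 (41.6 to 46.7), Dlgap1 at 40.3 (39.7 to 40.9) and Gria4 at 34.7 CPM per kb (32.0 to 42.1). The ranges of Gria4 and of its neighbour Dlgap1 overlapped, those of Nlgn2 and Gria4 did too, and that of Grik3 overlapped with none. Per kilobase of coding sequence the same 4 genes led, with Dlgap1 (104 CPM per kb) ahead of Nlgn2 (95.7). The median over 15528 tested genes with a transcript length was 7.70 CPM per kb, and 15 of the 39 tested genes lay above it.

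**Figure D1:**
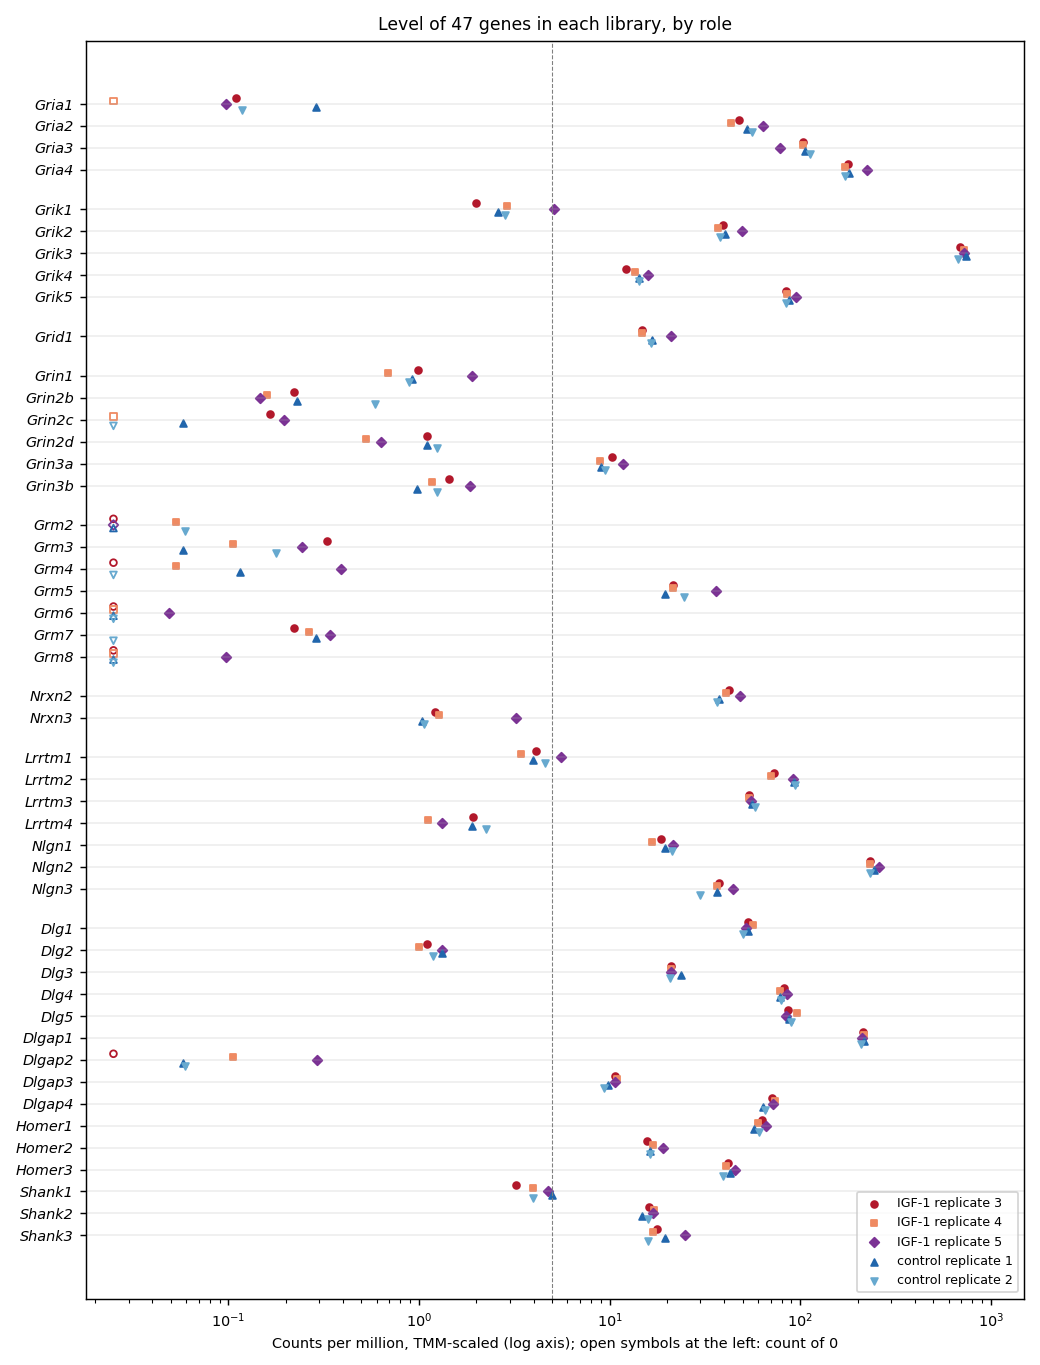
Level of 47 of the 50 genes in each library, in TMM-scaled CPM on a log axis, grouped by role; filled symbols are single libraries, open symbols at the left mark a count of 0, and the dashed line marks 5 CPM. Grik3 stands highest in all 5 libraries, while Gria1, the Grin2 genes shown and every Grm gene shown but Grm5 lie near or below 1 CPM.

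Sequences before the start of 3 of these genes are shown to set the most abundant gene (Grik3) and an AMPA receptor gene whose level is followed below (Gria2) beside a receptor gene with 1 count in all (Grm6). Each line gives the 250 bases before the RefSeq start with the most CpG dinucleotides, 5′ to 3′ on the gene's strand, build GRCm38.p6, with every CpG in capitals. The bases just after the start were found in a GENCODE M21 transcript for Gria2 and Grm6 and not for Grik3, so the RefSeq start of Grik3 has no such match. None of the 3 windows overlaps an annotated exon of that build (GENCODE M21). They lie at chr4:125490446-125490695 on the plus strand for Grik3, at chr3:80802836-80803085 on the minus strand for Gria2 and at chr11:50850435-50850684 on the plus strand for Grm6.
Grik3: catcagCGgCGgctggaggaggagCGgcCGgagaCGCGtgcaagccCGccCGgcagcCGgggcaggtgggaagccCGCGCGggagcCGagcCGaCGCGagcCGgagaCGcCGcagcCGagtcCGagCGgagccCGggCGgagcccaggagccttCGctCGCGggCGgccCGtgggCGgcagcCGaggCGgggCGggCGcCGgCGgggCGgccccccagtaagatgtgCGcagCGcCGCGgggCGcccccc
Gria2: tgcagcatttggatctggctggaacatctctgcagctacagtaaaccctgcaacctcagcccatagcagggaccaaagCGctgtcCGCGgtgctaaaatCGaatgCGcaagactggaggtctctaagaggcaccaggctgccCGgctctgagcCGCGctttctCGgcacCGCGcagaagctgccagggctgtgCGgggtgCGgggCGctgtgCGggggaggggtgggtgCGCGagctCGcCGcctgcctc
Grm6: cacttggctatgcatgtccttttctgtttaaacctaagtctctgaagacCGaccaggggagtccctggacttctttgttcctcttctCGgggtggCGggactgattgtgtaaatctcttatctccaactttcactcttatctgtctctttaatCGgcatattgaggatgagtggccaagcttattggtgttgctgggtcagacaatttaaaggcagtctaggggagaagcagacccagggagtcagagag
The Grik3 window holds 42 CpG, the Gria2 window 19 and the Grm6 window 4. A window was found for 33 of the 50 genes. The median was 18.5 CpG for the 20 of them averaging at least 5 CPM (range 2 to 42), 6.5 for the 6 between 1 and 5 CPM (2 to 27) and 9 for the 7 under 1 CPM (4 to 29), beside 6 over all 27025 genes in the RefSeq table. That last median takes in genes of any level, so it is no like comparison for the genes of at least 5 CPM. The ranges overlap widely, and no test was made. Dlgap1, at 213 CPM, held 9 CpG, and Grm8, with 0 to 2 counts per library, held 29.

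With IGF-1, none of the receptor, adhesion or scaffold genes passed the test for a rise or a fall when all 5 libraries were used. At an adjusted p under 0.05 edgeR called 0 of the 39 tested genes, and DESeq2 called 0 while giving no adjusted p for 6 of them. Over all 15919 genes tested, edgeR called 1.02% in either direction, 0.685% higher and 0.339% lower, and DESeq2 called 1.2% higher and 0.559% lower, so that 0 of 39 is near the background. At an unadjusted p under 0.05 edgeR had 2 higher, Nrxn2 and Dlgap4, and 1 lower, Lrrtm2, against 7.1% and 5.57% of all genes. Levels in the 3 IGF-1 libraries lay all above both controls for 5 genes and all below for 3, beside 16.2% and 16.9% of all genes. The median log2 fold change was 0.05 over the 39 genes and -0.01 over all genes, with 27 of the 39 above 0 and 12 below. Of all 15919 genes, 7687 lay above 0 and 8232 below. For 30 of the 39, the 95% confidence interval of the log2 fold change lay within 1.5-fold in both directions. For Dlg2, Grik1, Grin1, Grin2d, Grin3b, Grm5, Lrrtm4, Nrxn3 and Shank1 it did not, so a change of that size is not excluded there.

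Without IGF-1 replicate 5, edgeR called 2 of 39 lower, Gria2 and Lrrtm2, and 0 higher, beside 3.65% lower and 5.49% higher over 15573 genes tested. At an unadjusted p under 0.05 that fit had 2 higher and 4 lower, against 11.6% and 9.64% of all genes. DESeq2 called Lrrtm2 lower in the same 4 libraries and no other of the genes, with no adjusted p for 9, beside 1.21% lower and 2.49% higher over all genes. The median over the 39 was then -0.03, with 15 above 0 and 24 below, beside 7555 above and 8018 below among all 15573 genes. With IGF-1 replicate 3 left out, edgeR called 0 of the 39, beside 29 higher and 9 lower of 15613 genes tested. With IGF-1 replicate 4 left out it called 0 of the 39, beside 35 higher and 18 lower of 15601. So few calls over all genes mean that these fits say little about the 39. With a control left out, only 1 control remains.

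**Figure D2:**
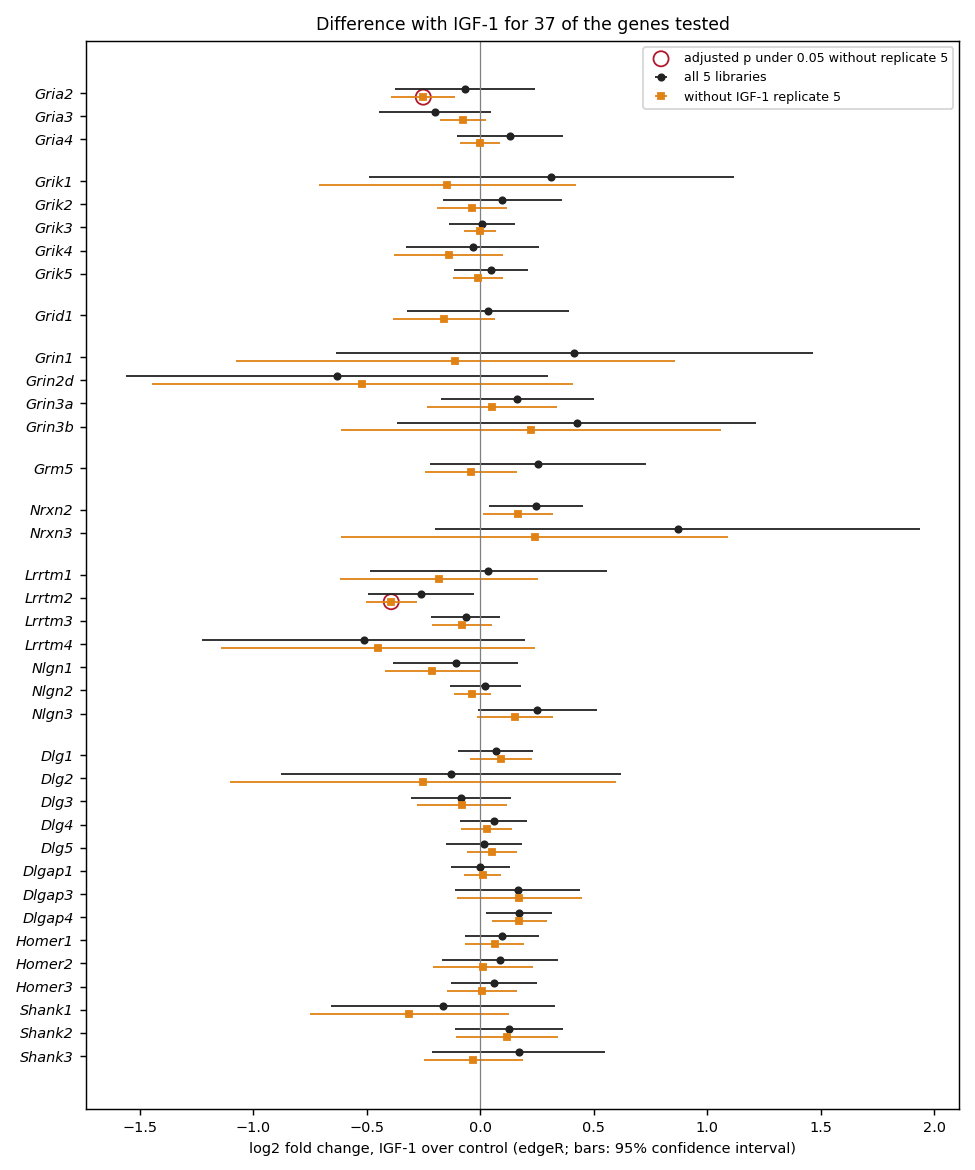
Log2 fold change, IGF-1 over control, of 37 of the 39 genes tested by edgeR with all 5 libraries (circles) and without IGF-1 replicate 5 (squares), with 95% confidence intervals; open red circles mark an adjusted p under 0.05 without replicate 5. Gria2 at -0.25 and Lrrtm2 at -0.39 carry such a mark, and no gene passes with all libraries.

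AMPA receptor transcripts were those of GluA2, GluA3 and GluA4, with GluA1 all but undetected. Gria4 was at 179, 173 and 225 CPM in IGF-1 replicates 3, 4 and 5, against 181 and 171 CPM in the controls. Replicate 5 was the highest, and the other 2 IGF-1 libraries lay between the controls. Gria3 was at 103, 104 and 78.4 CPM with IGF-1, against 105 and 113 CPM in the controls. Here replicate 5 was the lowest, and the groups did not overlap, although replicates 3 and 4 were close to control replicate 1. Gria2, whose edited subunit keeps calcium out of the channel, was at 47.6, 43.2 and 63.6 CPM with IGF-1, against 52.5 and 55.6 CPM in the controls. Replicates 3 and 4 lay below both controls and replicate 5 above both. By edgeR's quasi-likelihood test the log2 fold change of Gria2 was -0.07 (95% confidence interval -0.38 to 0.24, adjusted p = 0.868) with all libraries. Without replicate 5 Gria2 fell, by 0.25 on the log2 scale (SE 0.07, adjusted p = 0.0117), while DESeq2 gave an adjusted p of 0.124 for it in those libraries. With IGF-1 replicate 4 left out, the log2 fold change of Gria2 was 0.04. Gria4 was at 0.13 (interval -0.11 to 0.36) and Gria3 at -0.20 (interval -0.45 to 0.05) with all libraries, and at -0.0018 and -0.08 without replicate 5. Gria1 had 2, 0 and 2 counts with IGF-1 and 5 and 2 in the controls, too few to test.

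Per kilobase of coding sequence, Gria4 made up 56.1% ± 4.15 of the AMPA subunit total with IGF-1 (SD, n = 3) and 51.4% ± 2.10 in the controls (SD, n = 2). Gria3 made up 28.6% ± 6.15 with IGF-1 and 32.4% ± 1.49 in the controls, and Gria2 15.3% ± 2.01 and 16.1% ± 0.644. Gria2 was thus the lowest of the 3 detected subunit genes in every library, at 13.7% to 17.5%. Per kilobase of the longer whole transcript its share was 7.38% to 9.67%, since Gria2 has a long untranslated part. Replicate 5 had the lowest Gria3 share (21.5%) and the highest Gria4 share (60.9%).

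**Figure D3:**
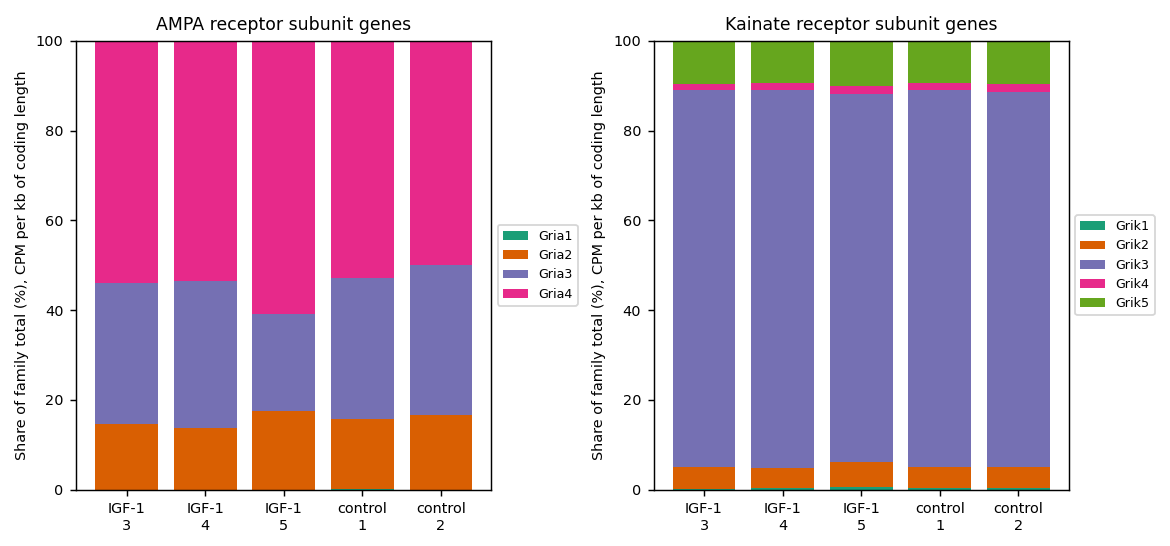
Share of each subunit gene in the AMPA (left) and kainate (right) receptor family total of each library, in percent of CPM per kb of coding sequence, with IGF-1 replicates 3, 4 and 5 left of control replicates 1 and 2. Gria4 takes 49.9% to 60.9% of the AMPA total and Grik3 81.9% to 84.3% of the kainate total.

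Grik3, which encodes the kainate subunit GluK3, was the most abundant of the 50 genes. It was at 691, 719 and 721 CPM in IGF-1 replicates 3, 4 and 5, against 738 and 674 CPM in the controls, so that all 3 IGF-1 values lay between the controls. Its log2 fold change was 0.0085 (95% confidence interval -0.14 to 0.15), and -0.0028 (-0.07 to 0.07) without replicate 5. Grik5, the gene of the high-affinity subunit GluK5 that needs a GluK1 to GluK3 partner to form a channel, was at 84.2, 85.5 and 95.1 CPM with IGF-1, against 87.2 and 83.9 CPM in the controls. Grik2 (GluK2) was at 39.2, 37.3 and 49.2 CPM with IGF-1, against 40.3 and 38.1 CPM in the controls. Both genes were highest in replicate 5, and their groups overlapped. Grik4, of the other high-affinity subunit GluK4, was at 12.2, 13.7 and 15.9 CPM with IGF-1, against 14.3 and 14.2 CPM in the controls. Grik1 had 36, 55 and 105 counts with IGF-1 and 45 and 48 in the controls, with replicate 5 well above the rest. Grik3 made up 83.4% ± 1.29 of the kainate total per kilobase of coding sequence with IGF-1 (SD, n = 3) and 83.8% ± 0.502 in the controls (SD, n = 2), and Grik5 9.71% ± 0.378 and 9.54% ± 0.294. None of the 5 kainate genes passed the test with or without replicate 5 (log2 fold changes -0.03 to 0.31 with all libraries and -0.15 to -0.0028 without it).

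Grid1 encodes the delta receptor GluD1, a receptor-like protein that glutamate does not open and that binds cerebellins tied to neurexins. Grid1 was at 14.9, 14.7 and 21.1 CPM with IGF-1, against 16.7 and 16.4 CPM in the controls. Replicates 3 and 4 lay below the controls and replicate 5 above them, and Grid1 did not pass the test (adjusted p = 0.948 by edgeR, 0.448 without replicate 5).

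NMDA receptor transcripts were scarce. Grin1, of the obligatory subunit GluN1, had 18, 13 and 39 counts with IGF-1 and 16 and 15 in the controls, or 0.688 to 1.91 CPM over the libraries. It shares 1307 exon bases with Grin1os on the opposite strand. Among the glutamate-binding GluN2 genes, Grin2b had 3 to 10 counts per library, Grin2c 0 to 4 and Grin2d 10 to 21. No gene in the counts carried the symbol Grin2a, so the level of that GluN2 gene is not known here. Grin3a, of the glycine-binding subunit GluN3A, was the only gene of this family above 5 CPM, at 10.2, 8.89 and 11.8 CPM with IGF-1, against 9.002 and 9.44 CPM in the controls. The groups overlapped (log2 fold change 0.16, 95% confidence interval -0.17 to 0.50). Grin3b had 26, 22 and 38 counts with IGF-1 and 17 and 21 in the controls, and part of its exons overlaps another gene on the opposite strand, Tmem259. Of 4 tested genes 0 passed.

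Of the 8 metabotropic receptor genes, Grm5 alone averaged over 1 CPM. Grm5, whose group I receptor mGluR5 acts through Gq and calcium release, was at 21.6, 21.4 and 36.0 CPM in IGF-1 replicates 3, 4 and 5, against 19.6 and 24.7 CPM in the controls. Replicates 3 and 4 lay between the controls, and replicate 5 stood above every other library. The log2 fold change was 0.25 (95% confidence interval -0.22 to 0.73), and -0.04 (-0.24 to 0.16) without replicate 5. Among the other 7 genes, Grm7 had 0 to 7 counts per library, Grm4 0 to 8, Grm3 1 to 6, Grm8 0 to 2, and Grm2 and Grm6 0 to 1. Grm6 had its only count, and Grm8 its 2 counts, in replicate 5. A count of 0 allows up to 3 counts in a library by counting error alone.

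Neurexin transcripts were mainly those of Nrxn2, which made up 65.7% to 72.9% of the family total per kilobase of coding sequence in each library. Nrxn2 was at 42.5, 40.7 and 48.5 CPM with IGF-1, against 37.6 and 36.6 CPM in the controls. All 3 IGF-1 values lay above both controls, with a log2 fold change of 0.24 (95% confidence interval 0.04 to 0.45) that did not pass by edgeR after adjustment over all genes (adjusted p = 0.31, or 0.197 without replicate 5, when it was 0.16). Part of the Nrxn2 exons overlaps Slc22a12 on the opposite strand. Nrxn3 had 22, 24 and 66 counts with IGF-1 and 18 and 18 in the controls. Its log2 fold change of 0.87 rested on replicate 5 and was 0.24 without it (adjusted p = 0.49 and 0.826 by edgeR).

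Among the neuroligins, the postsynaptic adhesion proteins that bind neurexins, Nlgn2 prevailed. Nlgn2, best known from inhibitory synapses, was at 233, 232 and 260 CPM with IGF-1, against 243 and 233 CPM in the controls, and the groups overlapped. Nlgn3, whose shed ectodomain is known as a growth signal for gliomas, was at 37.3, 36.5 and 44.5 CPM with IGF-1, against 36.6 and 29.7 CPM in the controls. Its value in replicate 4 was just below control replicate 1, so the groups overlapped, and the log2 fold change was 0.25 (95% confidence interval -0.01 to 0.51, adjusted p = 0.413 by edgeR), or 0.15 without replicate 5. Nlgn3 shares 3823 exon bases with Gm21986 on the same strand, so its reads may be divided between them. Nlgn1, of excitatory synapses, was at 18.7, 16.7 and 21.5 CPM with IGF-1, against 19.6 and 21.3 CPM in the controls. It shares 1229 exon bases with A830092H15Rik on the opposite strand. Per kilobase of coding sequence Nlgn2 made up 79.7% to 82.0% of the neuroligin total in each library, a share that depends on the Nlgn3 count and its limit.

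LRRTM proteins also bind neurexins and help to hold AMPA receptors at synapses. Lrrtm2 was at 72.7, 70.1 and 91.5 CPM in IGF-1 replicates 3, 4 and 5, against 93.1 and 94.4 CPM in the controls. All IGF-1 values lay below both controls, but replicate 5 was only just below. The log2 fold change was -0.26 (95% confidence interval -0.50 to -0.03, adjusted p = 0.343 by edgeR) with all libraries, and Lrrtm2 did not pass. Without replicate 5 Lrrtm2 fell, by 0.39 on the log2 scale (SE 0.06, adjusted p = 8.2e-08 by edgeR and 1.83e-05 by DESeq2). Lrrtm2 lies whole inside Ctnna1, the alpha-catenin gene, on the opposite strand, and its reads cannot be separated from unspliced Ctnna1 RNA if counting ignored strand. Ctnna1 was at 306, 300 and 350 CPM with IGF-1, against 303 and 295 CPM in the controls, a log2 fold change of 0.09 (SE 0.08). Lrrtm3, likewise inside Ctnna3 (3 to 8 counts per library), was at 54.0, 53.7 and 55.5 CPM with IGF-1, against 56.0 and 57.8 CPM in the controls. These groups did not overlap, but the log2 fold change was only -0.07 (interval -0.22 to 0.09). Lrrtm1 averaged 4.38 ± 1.09 CPM with IGF-1 (SD, n = 3) and 4.29 ± 0.439 CPM in the controls (SD, n = 2), and Lrrtm4 1.45 ± 0.424 and 2.07 ± 0.239 CPM. Lrrtm1 lies whole inside Ctnna2 on the opposite strand, so the same limit applies to its reads. Ctnna2 was at 23.4, 22.7 and 31.0 CPM with IGF-1, against 20.9 and 21.9 CPM in the controls. Lrrtm4 shares 1543 exon bases with Gm4409 on the opposite strand.

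Of the 14 scaffold genes tested, 0 passed with or without replicate 5, and the median log2 fold change was 0.06 with all libraries and 0.02 without it. Dlgap1, whose protein links PSD-95 to SHANK, was at 212, 216 and 210 CPM with IGF-1, against 216 and 209 CPM in the controls, a log2 fold change of 0.0004 (95% confidence interval -0.13 to 0.13). Dlgap4 of the same family was at 71.2, 73.7 and 72.3 CPM with IGF-1, against 63.5 and 65.1 CPM in the controls. Its 3 IGF-1 values were close together and above both controls. Its log2 fold change was 0.17 with and without replicate 5 (SE 0.06 in each fit), but the adjusted p of 0.313, or 0.0582 without replicate 5, did not pass by edgeR. Dlgap3 was at 10.7, 10.96 and 10.7 CPM with IGF-1, against 9.87 and 9.38 CPM in the controls, also without overlap (log2 fold change 0.16, adjusted p = 0.626 by edgeR). Dlgap2 had 0 to 6 counts per library.

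Of the DLG genes, Dlg4 encodes PSD-95, the main scaffold of excitatory synapses, and led its family per kilobase. Dlg4 was at 82.2, 78.4 and 85.2 CPM with IGF-1, against 78.5 and 79.0 CPM in the controls. Dlg5, a more distant relative tied to cell polarity, was at 86.0, 96.5 and 84.2 CPM with IGF-1, against 87.0 and 89.0 CPM in the controls. Dlg1, which encodes SAP97, was at 53.3, 56.4 and 52.1 CPM with IGF-1, against 53.0 and 49.9 CPM in the controls. Groups overlapped in all 3. Dlg3, of SAP102, was at 21.0, 21.1 and 20.9 CPM with IGF-1, against 23.7 and 20.8 CPM in the controls, and also overlapped. Dlg2, of PSD-93, stayed at 19 to 27 counts per library. Per kilobase of coding sequence, Dlg4 took 43.9% to 48.1% of the DLG total and Dlg2 0.479% to 0.645%.

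HOMER proteins bind group I metabotropic receptors and SHANK. Homer1 was at 62.8, 60.2 and 65.9 CPM with IGF-1, against 57.0 and 60.8 CPM in the controls. Homer3, whose exons partly overlap Ddx49 on the opposite strand, was at 41.6, 40.7 and 45.6 CPM with IGF-1, against 42.6 and 39.2 CPM in the controls. Homer2 was at 15.8, 16.9 and 19.0 CPM with IGF-1, against 16.2 and 16.3 CPM in the controls. Replicate 5 was the highest library for each HOMER gene, and the groups overlapped in all 3. The short Homer1 forms that neuronal activity is known to induce cannot be told from the long ones in counts per gene. SHANK proteins are master scaffolds that join DLGAP and HOMER. Shank3 was at 17.8, 16.8 and 24.9 CPM with IGF-1, against 19.5 and 15.9 CPM in the controls, again highest in replicate 5. Shank2 was at 16.1, 17.2 and 16.9 CPM with IGF-1, against 14.7 and 15.9 CPM in the controls, without overlap but with an adjusted p of 0.669 by edgeR. Shank1 averaged 3.99 ± 0.749 CPM with IGF-1 (SD, n = 3) and 4.49 ± 0.754 CPM in the controls (SD, n = 2).

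Replicate 5 differed from the other IGF-1 libraries in many of these genes in the same direction. Among the 30 genes averaging at least 5 CPM, replicate 5 exceeded replicate 3 by more than 0.25 on the log2 scale in 11 and was lower by more than that in 1, beside 11.4% and 13.4% of 10960 genes of that level. Against replicate 4 the counts were 12 and 1, beside 11.3% and 13.7%. Replicates 3 and 4 differed from each other by that much in 0 of the 30, beside 2.8% of the 10960 genes higher in replicate 3 and 3.48% lower. The controls did so in 4 of the 30, with 2 in each direction, beside 3.53% and 3.46% of the 10960 genes. Against the mean of replicates 3 and 4, replicate 5 was higher by over 0.25 in 12 genes and lower in 1, beside 10.6% and 12.9% of the 10960 genes. The largest excess was that of Grm5 (0.74), and Shank3 (0.52), Grid1 (0.51) and Gria2 (0.49) were also among the highest. Lrrtm2 (0.36), Gria4 (0.36), Grik2 (0.36), Grin3a (0.30), Grik4 (0.29), Nlgn1 (0.28) and Nlgn3 (0.27) were also over 0.25, and Gria3 (-0.40) was the only one under -0.25. The 12 genes were 8 of the 11 receptor genes at this level, 3 of the 7 adhesion genes and 1 of the 12 scaffold genes, Shank3. Against the control mean, 24 of the 30 lay above in replicate 5, 13 in replicate 3 and 12 in replicate 4, beside 48.0%, 51.6% and 51.4% of the 10960 genes. Markers of other cells did not all move with replicate 5. Syt1 had 232 counts there and 81 to 105 elsewhere, and Snap25 had 21, beside 9 to 15. Other neuronal markers did not rise. Nefm was at 19.9 CPM in replicate 5, beside 25.5 and 27.5 in replicates 3 and 4 and 20.4 and 20.3 in the controls. Dlx5 had 6 counts in replicate 5 and 11 to 24 elsewhere. Tubb3 was at 57.7 CPM in replicate 5, beside 56.1 and 57.5 in replicates 3 and 4. Rbfox3 had 0 to 1 counts per library and Slc17a6 0 to 3, too few to show a difference. The summed neuronal list, at 113 CPM in replicate 5, lay between replicates 3 (109) and 4 (120). The 5 mitral and tufted cell markers summed to 334 CPM in replicate 5, 299 and 330 CPM in replicates 3 and 4 and 278 to 308 CPM in the controls, nearly all of it Reln, while Cdhr1 of that list had 218 counts in replicate 5 and 52 to 104 elsewhere. The 7 markers of maturing oligodendrocytes summed to 1517 CPM in replicate 5, 1354 and 1352 CPM in replicates 3 and 4 and 1463 to 1465 CPM in the controls. The 7 astrocyte markers summed to 272, 252 and 276 CPM in replicates 5, 3 and 4 and 282 to 283 CPM in the controls. The list was split. Gfap (5.77 CPM), Slc1a3 (97.5), Aldh1l1 (0.392) and Aqp4 (0.343) were at their lowest in replicate 5. Slc1a2 (99.2 CPM) and S100b (66.3) were at their highest there, and Gja1 (2.25) was at neither end. The part of these markers, and of the progenitor markers given above, in the excess of replicate 5 was not tested.

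**Figure D4:**
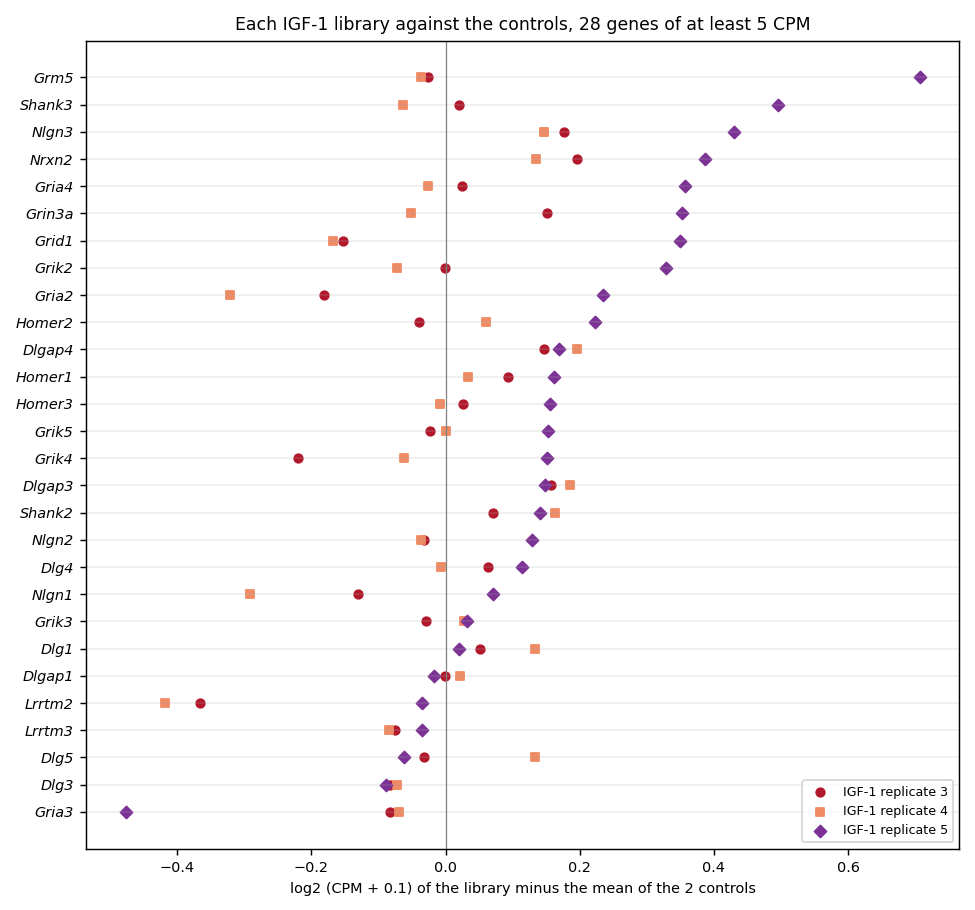
Log2 difference of each IGF-1 library from the mean of both controls, for 28 of the 30 genes averaging at least 5 CPM, ordered by replicate 5. Replicate 5 lies above 0 in 22 of the 28, up to 0.71 for Grm5, and replicates 3 and 4 in 12 and 11.

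Other genes of the excitatory synapse gave few calls as well. Of 43 tested genes of the postsynaptic density and receptor binding, 0 rose and 1 fell with all libraries by edgeR. The fall was that of Trio, the gene of a guanine nucleotide exchange factor, at 444, 452 and 427 CPM with IGF-1, against 547 and 549 CPM in the controls. All IGF-1 values were well below the controls, replicate 5 included, with a log2 fold change of -0.31 (SE 0.06, adjusted p = 0.0448 by edgeR and 0.00455 by DESeq2). That call was lost when a library other than replicate 5 was left out (adjusted p = 0.134 to 0.624 by edgeR). Baiap2, the actin-binding IRSp53 of spines, was at 111, 117 and 132 CPM with IGF-1, against 91.3 and 91.8 CPM in the controls. It just missed by edgeR (log2 fold change 0.39, adjusted p = 0.0537), and DESeq2 called it higher (adjusted p = 0.00705). Without replicate 5, 2 members rose by edgeR, Baiap2 (0.32, adjusted p = 2.95e-06) and the polarity gene Scrib (0.14, adjusted p = 0.0135). In that fit 3 fell, among them Trio (-0.29, adjusted p = 4.99e-10) and Iqsec1 (-0.22, adjusted p = 0.0164). Over all genes that fit called 5.49% higher and 3.65% lower. Of 41 other trans-synaptic partners 0 passed with all libraries (median log2 fold change 0.09). Ptprs and Dag1 were the most abundant, with log2 fold changes of 0.07 and 0.15, and without replicate 5 the adhesion gene Lrrc4b rose (0.19, adjusted p = 0.0311 by edgeR) and the adhesion gene Cadm2 fell (-0.33, adjusted p = 0.0268).

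Of 19 tested AMPA and kainate receptor auxiliary genes 0 passed with or without replicate 5, with a median of 0.11 with all libraries. The kainate receptor auxiliary gene Neto2 was at 242, 233 and 284 CPM with IGF-1, against 239 and 234 CPM in the controls, and the AMPA receptor auxiliary gene Cacng4 at 150, 145 and 147 CPM, against 138 and 137 CPM. Of 19 genes of group I metabotropic receptor signalling 0 passed with all libraries (median 0.08, with Prkca at -0.00035 and Itpr1 at 0.0055). Without replicate 5, 3 rose by edgeR, the calcium channel gene Orai1 (0.33, adjusted p = 0.0258), the Gq-family gene Gna11 (0.19, adjusted p = 0.00564) and the receptor kinase gene Grk2 (0.29, adjusted p = 0.00415), beside the 5.49% of all genes called higher in that fit. Of 16 genes of glutamate uptake and metabolism 0 passed (median -0.02, with Slc38a1 at 0.10 and Slc38a2 at 0.0077). Without replicate 5 Slc38a1, a glutamine transporter gene, rose (0.11, adjusted p = 0.0355 by edgeR) and Glul, of glutamine synthetase, fell (-0.22, adjusted p = 4.97e-05). Glul was at 218, 225 and 215 CPM with IGF-1, against 266 and 250 CPM in the controls (log2 fold change -0.23, adjusted p = 0.132 by edgeR with all libraries). Of 9 tested genes of GABA and glycine receptors and gephyrin 0 passed with or without replicate 5 (median 0.04, with Gabbr1 at 0.14). Of the genes of these lists called without replicate 5, DESeq2 in the same libraries kept Trio, Baiap2 (adjusted p = 0.000286) and Glul (adjusted p = 0.00168), and gave adjusted p of 0.0605 to 0.225 for the others.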

How the data were processed

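Per the labels, polyadenylated RNA of sorted cells was sequenced in 5 libraries. What the authors deposited is 1 table of unnormalized read counts per library, keyed by gene symbol. The submitters' processing notes name cutadapt 3.4, STAR 2.7.9a, featureCounts 2.0.1, DESeq2 1.28.1 and build GRCm39. Roles, settings, annotation and the use of strand or multiply mapped reads are not given in the sources used here, so reads of overlapping genes may be shared. Of the 50 genes, 17 share exon bases with another gene in GENCODE M21.

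Groups follow the titles. Counts were tested in R 4.3.3 with edgeR 4.0.16 (filterByExpr, minimum count 10, minimum total 15, TMM factors, two-sided quasi-likelihood test, Benjamini-Hochberg adjustment over all genes, threshold 0.05), checked on simulated data. The standard error is the fold change divided by the square root of F, and 95% intervals use the t distribution of the fit. Alternatives were RLE factors, total counts, no filter, DESeq2 1.42.0, limma 3.58.1 (voom) and each library left out. DESeq2 without replicate 5 and coding length were added after seeing the data. Differences per library use log2(CPM + 0.1). Transcript and coding lengths are those of the principal transcript in GENCODE M21 (GRCm38), matched by symbol for all 50 genes, and promoter windows come from RefSeq. Values are given per library for genes averaging at least 5 CPM and for any called in some fit. Protein sequences were not used here. The genes, lists and rules were chosen with earlier results of these data known. Values of a few genes are not reported here.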

Additional observations from a re-analysis of the deposited data

How the results depend on the processing

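No paired analysis was possible because the groups share no replicate number. The count of the 50 genes called higher was 0 under every alternative. The count called lower was 0 except without replicate 5, with 2 by edgeR and 1 by DESeq2. Leaving out each library in turn gave 0 to 855 genes higher and 2 to 569 lower over the whole table, against 109 and 54 with all libraries. Without a filter on low counts edgeR called 385 higher and 221 lower, and DESeq2 called 191 and 89, or 387 and 189 without replicate 5. Of 429 refits of single genes, 15 by DESeq2 gave no adjusted p. Of the other 414, 376 kept the direction and the side of the threshold, 35 changed direction without a call in either fit, and 3 gained a call, all without replicate 5 (Gria2 by edgeR, Lrrtm2 by both tools). With a single control left the test rests on the spread between IGF-1 libraries. The 11 genes under the filter had too few counts to be tested. The cause of the difference of replicate 5 was not tested.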
